A study of Drosophila melanogaster with 7 samples.

Results

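GABA and glutamate act on nerve cells through receptors of several families, and 10 of the 17493 genes in the deposited tables are described here because they encode such receptors: Rdl, Lcch3, Grd, GABA-B-R1, GABA-B-R2, GABA-B-R3, Nmdar1, Nmdar2, mGluR and GluClalpha. The genes were found by their symbols, and all 10 had a row and at least some UMIs (unique molecular identifiers, each standing for a captured RNA molecule). In insects GABA is the main fast inhibitory transmitter of the brain. Glutamate excites muscle at the larval neuromuscular junction, whereas in the brain it can also inhibit, because flies carry a glutamate-gated chloride channel. Channels that open directly on transmitter binding act within milliseconds, and receptors coupled to G proteins act more slowly by changing second messengers and ion channels.

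The cells came from pooled brains of wild-type Canton-S (CS) first instar larvae of Drosophila melanogaster kept at 25 °C. In the normal group larvae fed freely. In the starvation group larvae were moved, per the labels, at 11 h after larval hatching to agar without food for 4 h. RNA was captured in droplets from the 3′ end, and 4 normal and 3 starvation libraries were deposited, which were combined into 3 normal replicates (A, B and C) and 2 starvation replicates (A and B). No genotype other than wild type was present, and each replicate pooled many larvae.

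The files held 9353 cells, of which 8696 passed the filters, and kept cells of normal A were the shallowest, with a median of 2370 UMIs, and those of normal C the deepest, with 12296. A technical feature touches all results below: 664 cell barcodes were present in more than 1 library. Of the cells in normal B, 52.0% had a barcode that another library also held, and in starvation A 14.5% did, against at most 1.00% in the other replicates. The 2 libraries of normal B shared 597 barcodes and the 2 of starvation A shared 170, and such a barcode counted as a cell in each library. Across the conditions, each library of normal B shared 218 to 262 barcodes with each library of starvation A. Among kept cells, 1094 had over 3 times as many UMIs under the same barcode in another library, and 832 of these were in normal B and 255 in starvation A. Every test was therefore repeated without those 1094 cells, and the values are given where they changed a call.

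Cells were clustered without the 10 receptor genes, although genes correlated with them still shaped the clusters, and clusters were named from markers. There were 4574 neurons in 13 clusters, 249 Kenyon cell-like cells (the intrinsic neurons of the mushroom body, the centre of olfactory learning), 807 cells resembling the undifferentiated neurons of the study (UN-like) and 600 glia-like cells. All 8 neuron markers, all 11 Kenyon cell markers, all 13 glia markers and 5 of 6 UN markers were higher in their class than in the other cells, and none was at 0. The same markers had named the clusters, so this direction was largely set in advance and is no independent check of the names. Libraries stood apart in some clusters. Of 611 cells in a shallow neuron cluster led by CG12239, 552 came from normal A, and of 247 cells in another led by Trissin and NPF, 236 came from normal B and 87.85% had over 3 times the UMIs under the same barcode elsewhere. The borders of the neuron class also moved with small settings of the clustering: it held 4468 cells with another random seed and 4991 with 30 in place of 31 components, whereas the other 3 classes held 97.3% or more of their cells. Every test was repeated with both, as alternatives chosen after the data were seen.

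Neurons were then divided by the gene that led their counts among VAChT (the vesicular acetylcholine transporter), VGlut (the vesicular glutamate transporter), Gad1 (the enzyme that makes GABA) and Vmat (the vesicular monoamine transporter). A leading gene was found in 3706 neurons: 1730 were VAChT-led, 868 VGlut-led, 861 Gad1-led and 247 Vmat-led. This division is a range on a score, and 660 neurons lay near its threshold. Genes not used for it followed it in VAChT-led, Gad1-led and Vmat-led neurons, whereas no such gene was read for VGlut-led neurons. ChAT, the enzyme that makes acetylcholine, averaged 599 CPM (UMIs of a gene per 1000000 UMIs of the class) in VAChT-led neurons and 43.1 to 66.3 CPM in the other neurons with a leading gene. VGAT, the vesicular GABA transporter, averaged 257 CPM in Gad1-led neurons and 29.5 to 36.1 CPM in the others. The dopamine transporter gene DAT averaged 3305 CPM in Vmat-led neurons and at most 25.2 CPM in the others. For ple these values were 1029 CPM and at most 10.7 CPM. Ddc was less sharply divided, with 1909 CPM in Vmat-led neurons and 183 to 297 CPM in the others.

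The genes for the ionotropic GABA receptors are spread over 2 chromosomes. In BDGP6 coordinates, Rdl lies on 3L from 9145838 to 9182149 on the minus strand, Grd on 3L from 17823333 to 17839767 on the plus strand and Lcch3 on X from 15925105 to 15928529 on the plus strand. Lcch3 overlaps Ranbp16 on the opposite strand, and Grd overlaps CG32188, CG32189 and CG5577. The sources used here do not state whether counting used strand, so the counts of overlapping pairs may be mixed. The same holds for Nmdar1 (3R, 5508842 to 5523328), which overlaps Itpr on the opposite strand, and for Nmdar2 (X, 1483625 to 1507809), which overlaps inc on the opposite strand. Nmdar1 also overlaps CG43845 on its own strand. GABA-B-R1 (2L, 15016331 to 15034704) overlaps CG33310 and CG31832, and GluClalpha (3R, 19730715 to 19775231) overlaps a long noncoding RNA and Acsx1L. GABA-B-R2 (3R, 21770333 to 21775840), GABA-B-R3 (2L, 749945 to 762399) and mGluR (4, 936819 to 949441) had no overlapping gene other than transposon insertions.

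Rdl encodes the principal GABA-gated chloride channel subunit of the fly and is the target of cyclodiene insecticides. It was detected in almost every neuron. In VAChT-led neurons its level was 2727, 3064 and 2646 CPM in normal A, B and C, and 3324 and 3756 CPM in starvation A and B. Gad1-led neurons spanned 2451 to 3043 CPM, VGlut-led neurons 2083 to 2708 CPM and Vmat-led neurons 1776 to 2425 CPM. The ranges of neighbouring classes overlapped in this order, and only the Vmat-led neurons had every replicate below every replicate of the VAChT-led and Gad1-led neurons. A UMI of Rdl was seen in 99.3% of neurons on average (n = 5 replicates). Because cells with more UMIs show more genes, each cell was also thinned to 1000 UMIs, after which 92.7% ± 1.51 (SD, n = 5) of neurons, 25.6% ± 3.73 (SD, n = 4) of UN-like cells and 17.3% ± 7.51 (SD, n = 5) of glia-like cells still held one. Before thinning, neurons held a median of 7077 UMIs, UN-like cells 2254, and glia-like cells 4790. Blood cells and the steroid-making prothoracic gland should lack neuronal transcripts, and the same thinned share was 1.61% in hemocyte-like and 10.5% in prothoracic gland-like cells (means of 2 replicates), with medians of 5150 and 2999.5 UMIs. Of these cells 55.3% and 76.9% had over 3 times the UMIs under the same barcode in another library, against 1.20% and 1.79% in the 2 UN-like clusters. They are thus a limited reference. The share was above both in every replicate of the UN-like cells (21.9% to 30.3%), whereas the replicates of glia-like cells (6.15% to 25.2%) overlapped those of prothoracic gland-like cells (8.57% to 12.5%). In muscle-like cells, however, the share was 27.3% (22.9% to 33.3%, n = 4), a range that overlapped that of the UN-like cells. How much of these shares was RNA from other cells was not tested.

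Lcch3 and Grd encode channel subunits related to Rdl, and together they form GABA-gated cation channels when expressed in frog oocytes. The levels of Lcch3 overlapped between all neuron classes: VAChT-led neurons spanned 159 to 232 CPM, VGlut-led 158 to 221, Gad1-led 147 to 261 and Vmat-led 103 to 316. Its levels in normal C and starvation B were the lowest of the 5 replicates in the sum over neurons, 156 and 155 CPM, against 240.5 in normal A, 226 in normal B and 187 in starvation A. Grd was rare. Only 207 UMIs of it were found in the 4574 neurons, in 88 cells, and 137 of those UMIs were in 26 cells that held 3 or more each. Its level in neurons was 3.64, 9.66 and 5.23 CPM in normal A, B and C and 4.41 and 10.7 CPM in starvation A and B. Thus most neurons gave no UMI of Grd at this depth, and a small number gave several.

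The metabotropic GABA receptor is an obligate pair in which GABA-B-R1 binds GABA and GABA-B-R2 couples to G proteins, and GABA-B-R3 is a more divergent insect member. GABA-B-R1 was at 302, 426 and 379 CPM in VAChT-led neurons of normal A, B and C, and at 339 and 379.7 CPM in starvation A and B. In Vmat-led neurons it was at 226, 319.99 and 255 CPM in the normal replicates and at 211 and 197 CPM in the starvation replicates. Within each replicate the Vmat-led value was the lowest of the 4 neuron classes. GABA-B-R2 spanned 47.6 to 119 CPM over all classes and replicates of neurons with a leading gene, with every class overlapping every other. GABA-B-R3 spanned 16.2 to 76.0 CPM in the same set with the same overlap, and was lowest on average in VGlut-led neurons (21.2 to 28.6 CPM).

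Nmdar1 and Nmdar2 encode the subunits of the fly NMDA receptor, a calcium-permeable glutamate channel that opens only when the cell is also depolarised. Nmdar1 was at 86.8, 109 and 48.7 CPM in VAChT-led neurons of normal A, B and C and at 114 and 57.7 CPM in starvation A and B. As for Lcch3, the lowest values of each condition were in normal C and starvation B. Nmdar2 did not follow it: its level over all neurons stayed between 98.2 and 110.4 CPM in the 5 replicates. After thinning, the share of neurons with a UMI of Nmdar2 was between 9.14% and 20.8% where the cell also held Nmdar1 and between 8.93% and 9.95% where it did not, and the former was higher in 5 of 5 replicates. The counts were small, with 9, 13 and 6 neurons holding both in normal A, B and C and 17 and 5 in starvation A and B. In starvation A, which had the most neurons, the shares were 9.14% and 8.93%. For GABA-B-R1 and GABA-B-R2 the same measure went both ways: the share of neurons with GABA-B-R2 was 7.35% to 9.57% where GABA-B-R1 was present and 4.61% to 9.20% where it was not, and the former was higher in 3 of 5 replicates. For Lcch3 beside Rdl it was higher in 1 of 5 replicates. Of 3 further pairs, GluClalpha beside Rdl was higher in 4 of 5, GABA-B-R3 beside GABA-B-R1 in 3 of 5 and GABA-B-R3 beside GABA-B-R2 in 1 of 5. These are descriptions of cells that share libraries, and they were not tested.

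mGluR encodes the metabotropic glutamate receptor of the fly, which couples to inhibitory G proteins and is known from motor nerve terminals. In Gad1-led neurons it was at 200.3, 112 and 137 CPM in normal A, B and C, and at 154 and 159 CPM in starvation A and B. In VAChT-led neurons it was at 109, 110.1, 134, 129 and 161 CPM in the same order. GluClalpha encodes the glutamate-gated chloride channel, the target of ivermectin, through which glutamate inhibits fly neurons. It spanned 377 to 518 CPM in VAChT-led, 386 to 484 in VGlut-led, 301 to 452 in Gad1-led and 242 to 455 CPM in Vmat-led neurons, with overlap between all classes.

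**Figure D1:**
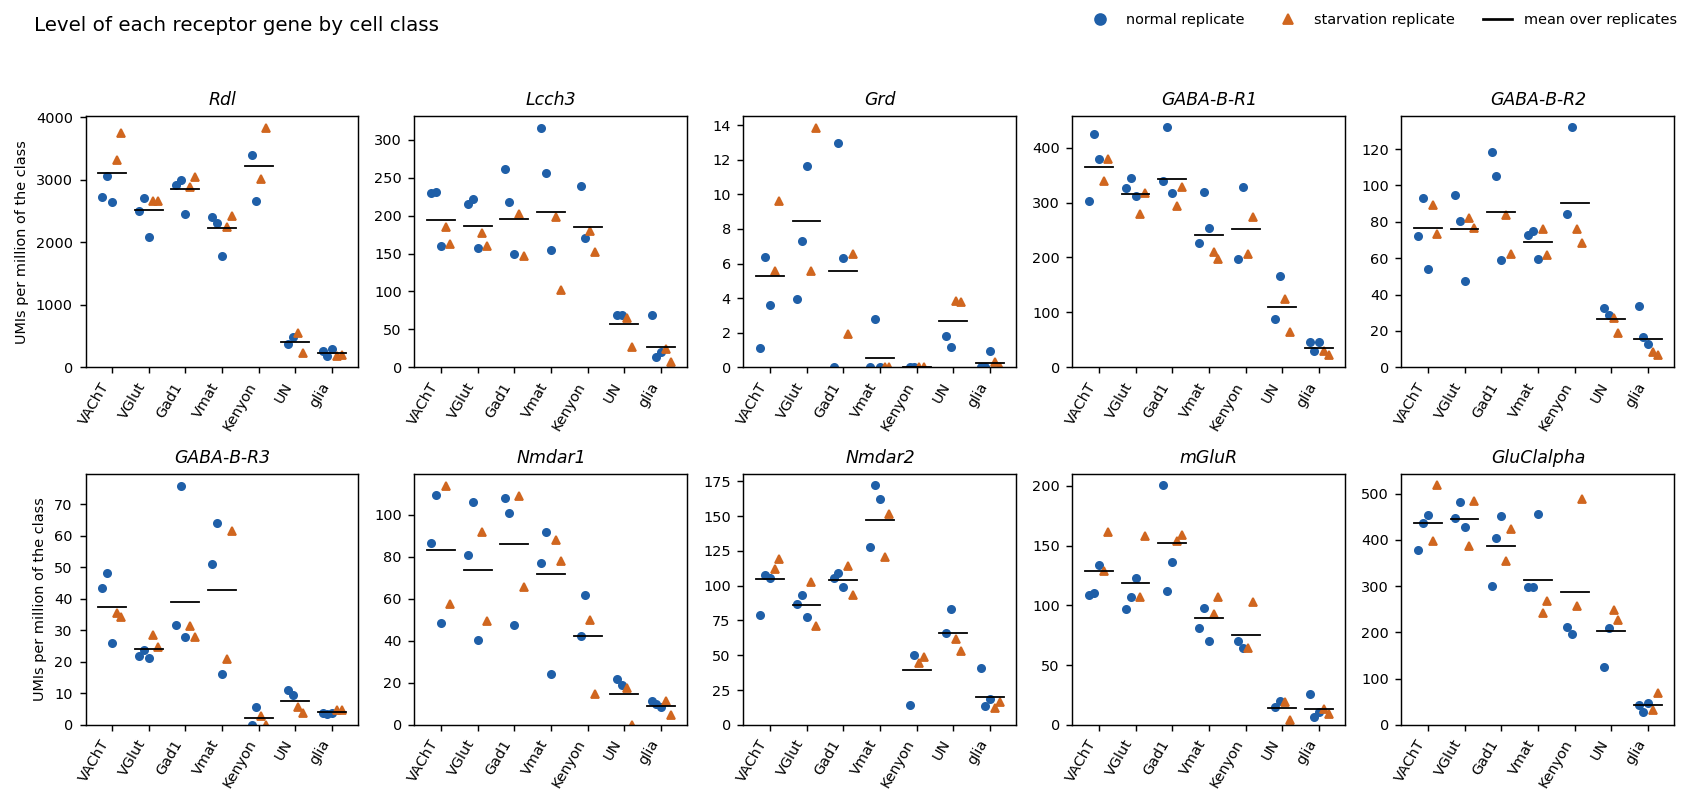
Level of each receptor gene (CPM within the class, linear axis from 0) in each cell class, with circles for normal replicates, triangles for starvation replicates and a line for the mean. Rdl stood between 1776 and 3838 CPM in all neuron classes and between 187 and 547 CPM in UN-like and glia-like cells, while GABA-B-R3 was at most 5.61 CPM in Kenyon cell-like cells.

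The first comparison asked whether neurons led by different transmitters differ in these receptors. UMIs were summed per class and replicate and tested with edgeR's quasi-likelihood test, with the replicate as a covariate, and p-values were adjusted over the 6749 genes tested. Of the receptor genes 9 were tested, because Grd had too few counts. In Gad1-led neurons 1 of the 9 was called, where 3.38% of all genes tested were called and 1.96% were called higher. This was mGluR, which was 1.38-fold higher than the mean of the other classes with a leading gene (log2 fold change 0.46, SE 0.12, adjusted p = 0.0258). It was above that mean in 5 of 5 replicates, by 1.07-fold to 2.10-fold. The call was lost without normal A (adjusted p = 0.142), without normal C (adjusted p = 0.0765) and without starvation A (adjusted p = 0.234).

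Vmat-led neurons, which make dopamine, serotonin and other monoamines, differed in 3 of the 9 genes, against 5.10% of all genes tested (2.44% higher and 2.65% lower). GABA-B-R1 was 1.42-fold lower (log2 fold change -0.51, SE 0.12, adjusted p = 0.00483) and mGluR 1.46-fold lower (log2 fold change -0.55, SE 0.15, adjusted p = 0.02498), both in 5 of 5 replicates. Nmdar2 was 1.46-fold higher (log2 fold change 0.55, SE 0.14, adjusted p = 0.0115) and higher in 5 of 5 replicates, with 128, 173, 162, 120.5 and 152 CPM in Vmat-led neurons of normal A, B, C and starvation A, B. For Rdl the log2 fold change was -0.35 (SE 0.12, adjusted p = 0.0870), with 5 of 5 replicates below the mean of the other classes, and it passed the test with another clustering seed (adjusted p = 0.0122). Each of the 3 calls was lost when a replicate was left out. That of GABA-B-R1 was lost without starvation A (adjusted p = 0.0543), that of mGluR without normal C, starvation A or starvation B (adjusted p = 0.0663 to 0.185), and that of Nmdar2 without normal B, normal C or starvation B (adjusted p = 0.0549 to 0.108), while GluClalpha (log2 fold change -0.45, SE 0.14, adjusted p = 0.0615) passed the test without normal C (adjusted p = 0.0413).

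In VAChT-led neurons 0 of the 9 receptor genes were called by edgeR (3.62% of all genes tested were), with 2 at an unadjusted p under 0.05 and 1 called by DESeq2. Those 2 were GABA-B-R1 (log2 fold change 0.30, SE 0.10, adjusted p = 0.120, and 0.0187 by DESeq2) and Rdl (log2 fold change 0.29, SE 0.11, adjusted p = 0.221), each above the mean of the other classes in 5 of 5 replicates. In VGlut-led neurons 0 of the 9 were called by edgeR (1.76% of all genes tested were), with 2 at an unadjusted p under 0.05 and 1 called by DESeq2. Here the log2 fold change was -0.44 (SE 0.13, adjusted p = 0.0816, and 0.0452 by DESeq2) for Nmdar2 and -0.61 (SE 0.18, adjusted p = 0.0934) for GABA-B-R3, each below the mean of the other classes in 5 of 5 replicates. Nmdar2 passed the edgeR test without normal A (adjusted p = 0.0163) and GABA-B-R3 without starvation A (adjusted p = 0.0420). By edgeR with all replicates, no receptor for GABA was thus called higher or lower in the neurons that make GABA, and no receptor for glutamate in those that package it.

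**Figure D2:**
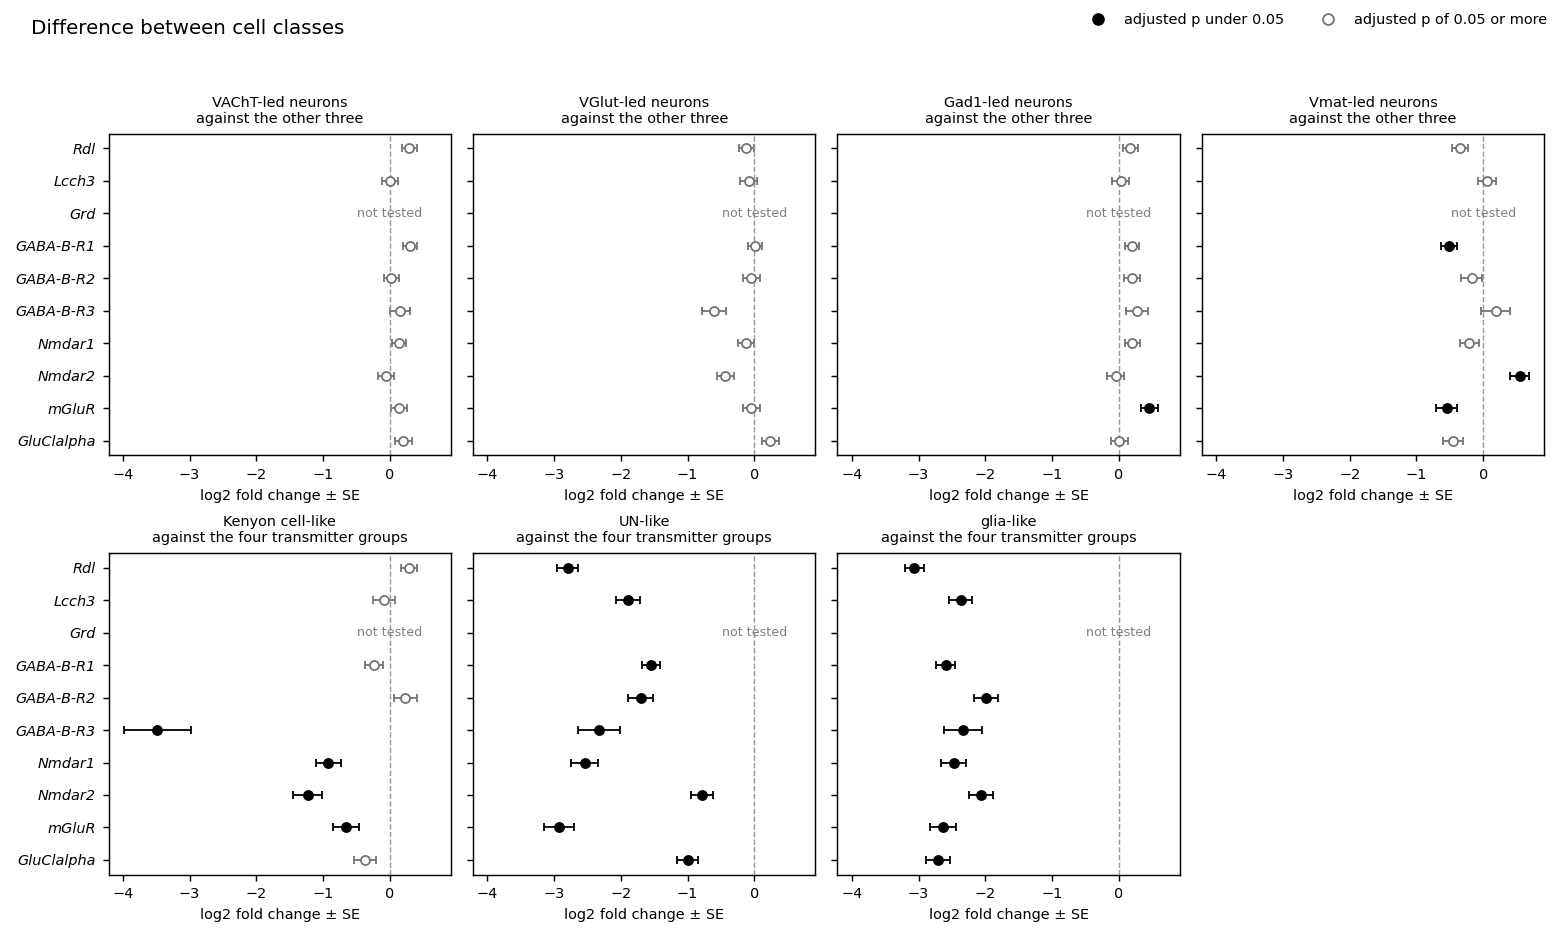
Log2 fold change (point) with its standard error (bar) of each tested receptor gene in each class, for the transmitter-led classes against the mean of the other transmitter-led classes and for Kenyon cell-like, UN-like and glia-like cells against the mean of the 4 transmitter-led classes. Filled points have an adjusted p under 0.05, and all 9 genes lie below 0 in UN-like and glia-like cells.

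Kenyon cells receive strong GABA inhibition from 1 wide-field neuron on each side of the brain, and Rdl in these cells is known to restrain olfactory learning in the adult. Kenyon cell-like cells were compared with the mean of the 4 transmitter-led classes over 4 replicates, since normal C held only 4 such cells. Of 9 receptor genes 4 were called, all lower, against 26.6% of all genes tested (14.5% lower). GABA-B-R3 was at 0, 5.61, 2.86 and 0 CPM in normal A, normal B, starvation A and starvation B, while VAChT-led neurons were at 26.1 CPM or more in every replicate. Over all cells, 4 UMIs of GABA-B-R3 among 1379207 in Kenyon cell-like cells gave 2.90 CPM (95% exact Poisson interval 0.790 to 7.43) against 34.2 CPM (32.1 to 36.4) from 1010 UMIs in transmitter-led neurons. These intervals cover counting error only. The fitted log2 fold change was -3.48 (SE 0.50, adjusted p = 9.89e-07). Its level in Kenyon cell-like cells did not exceed the 4.27 CPM of glia-like cells, so at this depth it was not distinguishable from RNA of other cells.

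The NMDA receptor genes were also lower in Kenyon cell-like cells. Nmdar2 was at 14.1, 50.5, 44.4 and 48.9 CPM in normal A, normal B, starvation A and starvation B, each below every replicate of every transmitter-led class, and 2.35-fold lower overall (log2 fold change -1.23, SE 0.21, adjusted p = 2.06e-05). Nmdar1 was at 42.3, 61.7, 50.1 and 14.7 CPM in the same order and 1.89-fold lower (log2 fold change -0.92, SE 0.19, adjusted p = 0.000293). mGluR was at 70.5, 64.5, 64.4 and 103 CPM and 1.57-fold lower (log2 fold change -0.65, SE 0.19, adjusted p = 0.00946). The ranges of Nmdar1 and mGluR overlapped those of transmitter-led neurons, but within each of the 4 replicates the Kenyon value lay below that of the transmitter-led neurons together. The mGluR call was lost without starvation A (adjusted p = 0.170).

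Rdl was at 3397, 2657, 3013 and 3838 CPM in Kenyon cell-like cells of normal A, normal B, starvation A and starvation B, above transmitter-led neurons in 3 of 4 replicates. Its log2 fold change of 0.29 (SE 0.12, adjusted p = 0.0775) did not pass the test, and passed it with another clustering seed (adjusted p = 0.0466). Grd gave 0 UMIs in the 249 Kenyon cell-like cells. With 3 counts as the limit that a count of 0 allows over the whole group, this leaves up to 2.18 CPM (counting error only), against 5.39 CPM in transmitter-led neurons. In normal A the transmitter-led neurons were themselves at 1.49 CPM, below that limit, and since the UMIs of Grd were concentrated in few cells no fold is given. GABA-B-R1, GABA-B-R2 and Lcch3 did not pass the test, with log2 fold changes of -0.24 (SE 0.14), 0.23 (SE 0.17) and -0.09 (SE 0.16). Nor did GluClalpha (log2 fold change -0.37, SE 0.17, adjusted p = 0.09997), which passed it without starvation B (adjusted p = 0.00767).

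The study labels some cells as presumptive undifferentiated neurons and leaves their identity to further validation. It describes them as carrying neuronal markers such as elav, Syt1 and nrv3, without marked levels of genes for making transmitters. In UN-like cells all 9 receptor genes tested were lower than in transmitter-led neurons, over 4 replicates, against 59.7% of all genes tested called and 30.3% called lower. The size differed between genes. mGluR was 7.59-fold lower (log2 fold change -2.92, SE 0.22, adjusted p = 3.77e-13), with 14.6, 20.3, 19.2 and 3.79 CPM in normal A, normal B, starvation A and starvation B. Rdl was 6.96-fold lower (log2 fold change -2.80, SE 0.15, adjusted p = 1.24e-16), with 366, 488, 547 and 235 CPM. Nmdar1 was 5.82-fold lower (log2 fold change -2.54, SE 0.20). At the other end stood GluClalpha, 2.00-fold lower at 126, 210.1, 248 and 228 CPM (log2 fold change -0.997, SE 0.16, adjusted p = 2.23e-06), and Nmdar2, 1.73-fold lower at 65.6, 83.6, 61.5 and 53.1 CPM (log2 fold change -0.79, SE 0.16, adjusted p = 9.63e-05). All 9 calls held under all 16 alternatives, among them leaving out the cluster of 223 UN-like cells led by heat shock genes, of which 211 came from normal A.

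Nmdar1 and Nmdar2, whose products work in the same channel, thus stood far apart in UN-like cells: the level of Nmdar1 was between 0 and 21.9 CPM, below every transmitter-led value, while that of Nmdar2 was between 53.1 and 83.6 CPM and overlapped the VGlut-led and VAChT-led ranges. After thinning, 1.00% ± 1.19 of UN-like cells held a UMI of Nmdar1 and 6.10% ± 2.06 one of Nmdar2 (SD, n = 4), against 7.81% ± 2.31 and 9.66% ± 0.462 of neurons (SD, n = 5). In glia-like cells the shares were 1.02% ± 0.614 and 2.73% ± 1.19 (SD, n = 5), and in prothoracic gland-like cells 0 for both. Of the latter cells 76.9% had over 3 times the UMIs under the same barcode in another library. The Nmdar2 share of UN-like cells (4.07% to 8.54%) overlapped that of glia-like cells (1.33% to 4.50%) in part. The classes differed in depth before thinning, and how much of each share was RNA from other cells was not tested. As a percentage of the level in transmitter-led neurons, the 9 receptor genes tested stood between 12.0% (mGluR) and 63.5% (Nmdar2) in UN-like cells. Grd averaged 67.6% on few counts, from 15.8% to 123% between replicates. The 8 neuron markers stood between 17.9% (nrv3) and 92.0% (elav).

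In glia-like cells all 9 receptor genes tested were lower as well, in a comparison where 73.1% of all genes tested were called and 35.7% were called lower. Rdl was 8.36-fold lower (log2 fold change -3.06, SE 0.14, adjusted p = 1.01e-19), with 264, 189 and 289.6 CPM in normal A, B and C and 187 and 193 CPM in starvation A and B. GABA-B-R2 was 3.97-fold lower (log2 fold change -1.99, SE 0.18, adjusted p = 7.28e-12), and the other 7 lay between. Relative to transmitter-led neurons the 9 receptor genes tested stood at 8.06% (Rdl) to 20.2% (Nmdar2) in glia-like cells and the 8 neuron markers at 7.43% to 14.6%. Grd averaged 4.99% on 2 UMIs, from 0% to 17.2% between replicates. The receptor genes and the neuron markers were hence at similar low fractions in glia-like cells, and in starvation A, the replicate with the most glia-like cells (300), the receptor genes spanned 6.22% to 14.4% and the markers 5.34% to 15.0%. Whether glia themselves transcribe any of these genes cannot be read from these levels. In normal B, 55.3% of the glia-like cells had over 3 times the UMIs under the same barcode in another library, and all 9 calls held without such cells.

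**Figure D3:**
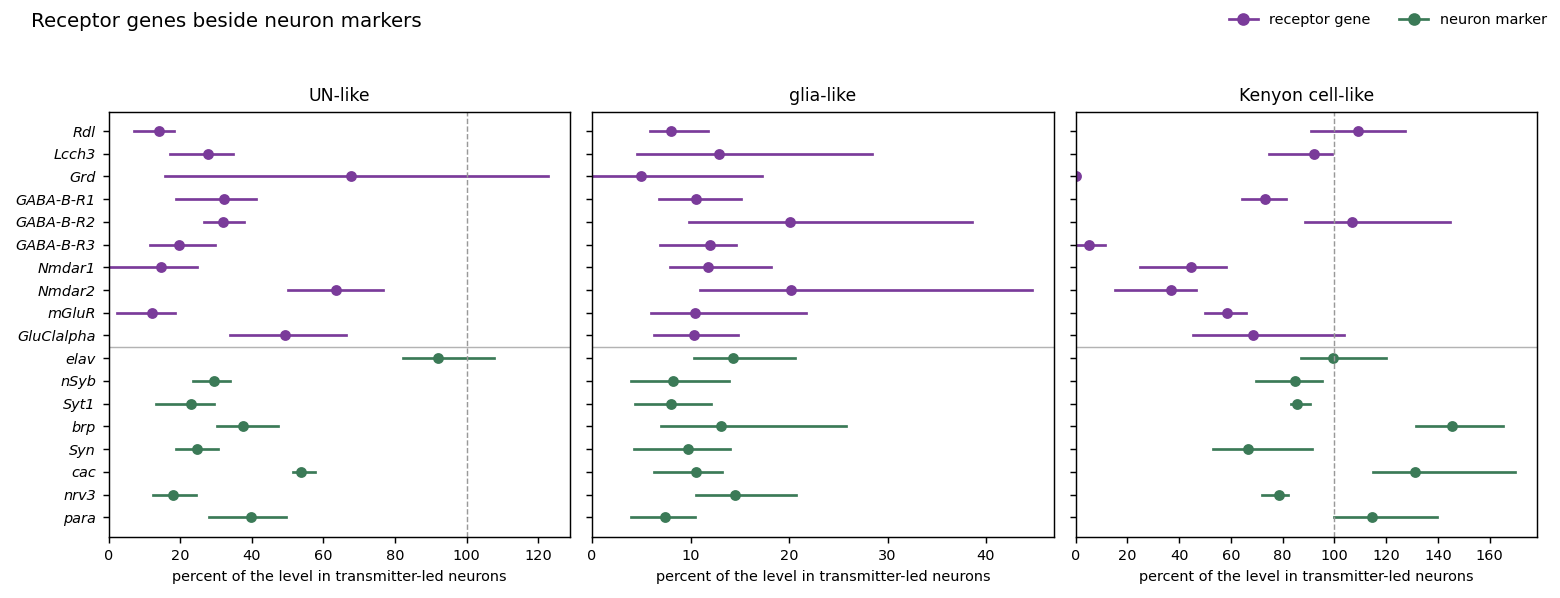
Level of each receptor gene and of the 8 neuron markers as a percentage of the level in transmitter-led neurons of the same replicate, with a point for the mean and a line from the lowest to the highest replicate, in the panels' cell classes. In glia-like cells the receptor genes (means 8.06% to 20.2%, and 4.99% for Grd on 2 UMIs) lie over a range close to that of the neuron markers (7.43% to 14.6%), while in UN-like cells both spread widely.

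Clusters of neurons divide the cells more finely than the transmitter gene. These are descriptions, since the clusters were made from the same cells and hold the replicates in unequal shares. The 11 neuron clusters with at least 10 cells in 3 or more replicates were compared. For 8 of the 10 receptor genes the highest cluster mean was 1.46-fold (Lcch3) to 2.26-fold (mGluR) the lowest. The cluster led by DAT, Vmat and ple, genes of dopamine neurons, had the lowest mean of Rdl (2174 CPM) and the highest of Nmdar2 (142 CPM). The cluster led by CG8541 and Rx, a homeobox gene, had the highest mean of 6 receptor genes, among them GABA-B-R1 (427 CPM), mGluR (169 CPM) and GluClalpha (507 CPM), and held 1 cell of normal A and 0 of normal C. The shallow cluster that came mostly from normal A had the lowest mean of 5, among them GABA-B-R1 (235 CPM). This mean weighs its replicates equally, and the low values were not those of normal A. GABA-B-R1 was at 297 CPM in its 552 cells of normal A. In its 31 cells of starvation A and 21 of starvation B it was at 193 and 214 CPM. All 5 genes were highest in normal A within this cluster. GABA-B-R3 and Grd varied most. GABA-B-R3 ranged from 17.6 CPM in the cluster led by the neuropeptide genes SIFa, FMRFa, AstA and NPF to 77.2 CPM in the cluster led by CG8541 and Rx.

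That same neuropeptide cluster had the highest mean of Grd, 33.0 CPM, against a median of 5.51 CPM over clusters. The 42 UMIs behind it came from 17 of 247 cells, and 30 of them from 6 cells. In the cluster led by exex and Awh, 31 of 43 UMIs of Grd came from normal B, in 6 of its 76 cells, and 16 from 1 cell. In the cluster that came mostly from normal A, 7 of its 17 UMIs were in 1 cell of starvation B. Grd was therefore patchy within clusters as well as between them.

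**Figure D4:**
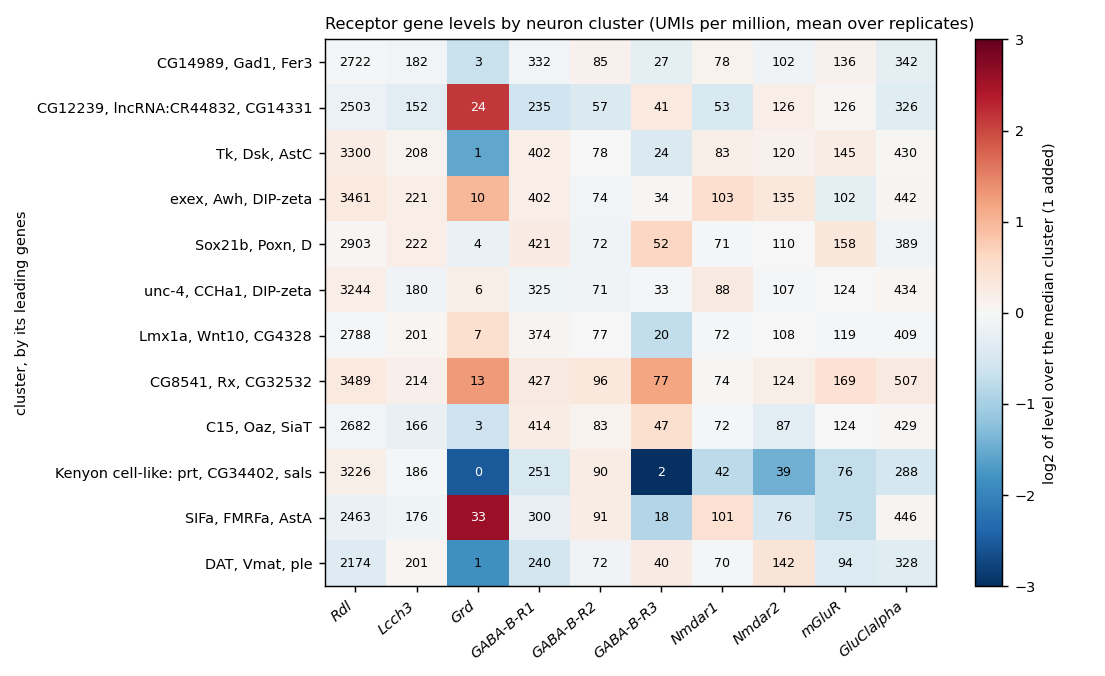
Each receptor gene's cluster mean (CPM, printed in the cell, colour for its log2 with 1 added over the gene's median cluster), with 1 row per neuron cluster and for Kenyon cell-like cells, named by leading genes, and 1 column per gene. GABA-B-R3 (17.6 to 77.2 CPM over neuron clusters) and Grd (0.611 to 33.0 CPM) vary more than the other columns, and the Kenyon cell-like row is low for GABA-B-R3, Nmdar1 and Nmdar2.

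The second comparison asked whether 4 h without food changed the receptors. No change passed the test: in 9 fits (all kept cells, all neurons and the 7 classes) 78 receptor tests were made, 0 were called by edgeR and 0 by DESeq2, and 1 had an unadjusted p under 0.05 by either tool. Of all genes tested edgeR called 0% to 0.0191% in 8 of the fits (0.0124% in all neurons) and 1.51% in glia-like cells, where 67 of 4451 genes were called and 0 of the 4 receptor genes that could be tested. Over all neurons the log2 fold changes of starvation against normal were between -0.23 and 0.27, with standard errors of 0.19 to 0.57. For Rdl it was 0.22 (SE 0.21), from 2889, 2919 and 2425 CPM in the normal replicates to 2971 and 3213 CPM in the starvation replicates. For GABA-B-R1 it was -0.10 (SE 0.23), from 313, 405 and 341 CPM to 306 and 337 CPM. The groups overlapped for GABA-B-R1, whereas for Rdl both starvation values were above all 3 normal values by less than the range of the normal values. With 3 replicates against 2 and these errors, changes of the size of the standard error could not be detected, and changes well above it could be missed. In the sums over all kept cells, where fewer cells of a type and less RNA per cell cannot be told apart, 0 of 10 receptor genes were called either.

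The test with the lowest unadjusted p was GluClalpha in Kenyon cell-like cells. It was at 211 and 196 CPM in normal A and B and at 256 and 489 CPM in starvation A and B (log2 fold change 0.92, SE 0.36, unadjusted p = 0.0268 and adjusted p = 0.610 by edgeR). The groups did not overlap, but the starvation values differed from each other by more than starvation A differed from the normal replicates, and the result failed the correction. Whether the starvation effect differed between classes was tested as an interaction. For Kenyon cell-like, UN-like and glia-like cells, each against transmitter-led neurons, 27 receptor tests gave 0 calls by edgeR and 0 by DESeq2, with 3 at an unadjusted p under 0.05 by either tool. The lowest adjusted p was 0.101, for GABA-B-R2 in glia-like cells (log2 difference -1.17, SE 0.34), and this test passed the threshold without the cells whose barcodes had over 3 times the UMIs elsewhere (log2 difference -1.29, adjusted p = 0.0465). GABA-B-R2 was at 33.5, 16.9 and 12.9 CPM in glia-like cells of normal A, B and C and at 8.55 and 6.98 CPM in those of starvation A and B, levels at which neuronal RNA from other cells was not told apart above. Of all genes tested, 0.954% were called for glia-like cells, 0.0285% for UN-like and 0% for Kenyon cell-like cells.

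Receptors work with other proteins of the synapse, and lists of such genes were read beside them. Of the 5 genes for other ionotropic glutamate receptors and their partner that could be tested in Kenyon cell-like cells, 1 was higher, 1 lower and 3 not called, where 26.6% of all genes tested were called. GluRIB, an AMPA-type subunit gene, was higher (log2 fold change 1.02, SE 0.16, adjusted p = 3.12e-06) and Neto, which encodes an auxiliary protein of glutamate receptors, was lower (-1.58, SE 0.45, adjusted p = 0.00676). pHCl-1, a chloride channel gene of the same Cys-loop family as Rdl, was higher (1.75, SE 0.19, adjusted p = 3.12e-09). So was mtt, a relative of mGluR (0.56, SE 0.20, adjusted p = 0.0346), while mGluR itself was lower. Of 8 genes for postsynaptic scaffolds and adhesion 3 were higher and 3 lower, the latter being Nlg4 (-2.32, SE 0.28), Nlg2 (-1.23, SE 0.14), both neuroligins, and homer (-1.03, SE 0.19). Of 8 genes for G proteins and inward rectifier channels 2 were higher, Ggamma1 (0.44) and Gbeta13F (0.42), a share close to that over all genes. The medians of these lists were 0.17 for ionotropic glutamate receptors, 0.16 for scaffolds and 0.00 for G protein partners, beside -0.04 over all genes tested.

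In Vmat-led neurons 2 of 5 ionotropic glutamate receptor genes were higher, GluRIA (log2 fold change 0.56, SE 0.13, adjusted p = 0.00433) and GluRIB (0.59, SE 0.14, adjusted p = 0.00954), and 0 were lower, where 2.44% of all genes tested were called higher. The list's median was 0.26, beside -0.01 over all genes tested. GluRIA was lower in Gad1-led neurons (-0.46, SE 0.13, adjusted p = 0.0287), the only 1 of the 5 called there, where 3.38% of all genes tested were called. pHCl-1 was lower in Vmat-led neurons (-1.75, SE 0.25, adjusted p = 7.81e-06) and higher in VAChT-led (0.89, SE 0.15) and VGlut-led neurons (0.76, SE 0.16). Of 8 G protein partners 1 was lower in Vmat-led neurons, Ggamma30A (-0.57, SE 0.14, adjusted p = 0.00970), where 2.65% of all genes tested were called lower. In Gad1-led neurons 0 of these 8 were called.

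In UN-like cells 5 of 5 ionotropic glutamate receptor genes and 7 of 8 scaffold genes were lower, where 30.3% of all genes tested were, with medians of -1.47 and -1.43, beside 0.03 over all genes tested. Of 8 G protein partners 4 were lower and 1 higher there, and of 10 genes for transmitter synthesis, release and uptake 6 were lower. Among all genes tested 59.7% were called in UN-like cells, so the shares called in these 2 lists were close to it. In glia-like cells, where 35.7% of all genes tested were lower, so were 5 of 5 receptor genes and 7 of 8 scaffold genes. Of 8 G protein partners 4 were higher and 4 lower, and of the 10 genes for transmitter synthesis, release and uptake 6 were higher and 3 lower, where 73.1% of all genes tested were called. The largest changes of the last list were in Gs2, a glutamine synthetase (log2 fold change 6.25), Eaat1, the glutamate transporter of astrocyte-like glia (5.61), and Gat, the GABA transporter (5.06). Eaat1, Gat and Gs2 were also among the markers that named these cells, so their direction is not a finding. Of the 5 lists and mtt, 0 genes were called between conditions in any class. Among the interactions Eaat2, a transporter of the same family as Eaat1, was called for glia-like cells (difference of log2 fold changes 1.41, SE 0.29, adjusted p = 0.0106).

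Across the 33 sums of class and replicate, the genes whose level was most like each receptor were found among 4707 genes by Pearson's r of log2 CPM. The sums share libraries and classes, so the values are descriptions. Rdl was most like Nca and Dhit (r = 0.98 for both), and Lcch3 most like nAChRbeta2, a nicotinic acetylcholine receptor subunit gene (0.97), and CG31030 (0.97). GABA-B-R1 was most like nSyb, a synaptic vesicle protein gene (0.97), and Ggamma30A (0.97), and GABA-B-R2 most like CG31030 (0.96) and Syngr (0.96). GABA-B-R3 was most like CG6330 (0.93) and Hs3st-B (0.92). Nmdar1 was most like kcc, a potassium chloride cotransporter gene (0.94), and Rop (0.92), and Nmdar2 like Fife, a gene of the presynaptic active zone (0.93), and CG43737 (0.92). mGluR was most like the channel gene Ih (0.97) and nrv3 (0.96), and GluClalpha like pan (0.97) and unc-13 (0.96). Grd, with the fewest counts, had the lowest values, 0.74 with CG31814 and 0.74 with CG9016.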

How the data were processed

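The deposited tables hold UMI counts per gene and cell, which the authors made with Cell Ranger, unnormalized. Library totals were 5359444 to 25232852 UMIs. Labels number 4 normal and 3 starvation libraries; a match of cell numbers with the study's table of sequencing metrics joined normal B and starvation A from paired libraries. Cells with 200 to 4500 genes and under 20% mitochondrial UMIs were kept. They were integrated by condition and clustered with Seurat 5.3.0 (31 components, resolution 2, 41 clusters) without the receptor genes. Cluster names needed at least 3 markers, with thresholds set after the clusters were seen. A leading transmitter gene needed 2 UMIs and 2/3 of the UMIs of VGlut, VAChT, Gad1 and Vmat, each weighted by its mean in neurons. Doublets stayed in: Scrublet in scanpy 1.11.5 called 41 of 8696 cells, too few to be trusted, so the 5% highest scores were left out as an alternative. UMI counts were summed per class and replicate with at least 10 cells and tested with edgeR 4.0.16 (TMM, filterByExpr, quasi-likelihood, Benjamini-Hochberg at 0.05), with the replicate as a covariate between classes. A class was set against the mean of the classes named. DESeq2 1.42.0 was an alternative, as were no filter on low counts, the 7 libraries as separate samples without and with a block for their number, leaving out each replicate, leaving out cells with over 3 times the UMIs under the same barcode elsewhere, resolution 1 and leading shares of 1/2 and 4/5. Another clustering seed, 30 components and leaving out the UN-like cluster led by heat shock genes were added after seeing the data. Linear algebra ran on 1 fixed processor kernel, because rounding alone moved the borders of clusters. The code was tested on simulated data. Levels in CPM were computed here as UMIs per 1000000 UMIs of the class. The smallest sums limit precision: Kenyon cell-like cells of normal A held 70949 UMIs. The p-values measure the spread between these replicates, which may be partly technical.

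The 10 receptor genes and all gene lists were chosen with earlier results of these data known. All 10 genes are named in each comparison; of each list, up to 3 called genes with the largest change per fit; and for each receptor gene the 2 with the highest correlation. The labels and the methods of the study give different kit versions and hours of transfer to agar; the label's hour is printed.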

Additional observations from a re-analysis of the deposited data

How the results depend on the processing

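The clusters, and with them the neuron classes, were the least settled step: the neuron class held 4331 to 4991 cells over the clusterings tried, against 4574. Between classes, 0 of 1008 recomputed fold changes reversed a called direction. The 9 receptor genes lower in UN-like cells and the 9 lower in glia-like cells were called under all 16 alternatives, and Kenyon cell-like cells had 3 to 5 called genes, mGluR being lost in 1 alternative, GluClalpha gained in 3 and Rdl gained in 1. Calls among the neurons with a leading gene moved more. Treating the 7 libraries as separate samples gave 1 called gene in VAChT-led, 1 in VGlut-led and 5 in Vmat-led neurons, and no filter on low counts gave 1, 2 and 6. DESeq2 gave 1 in VAChT-led and 1 in VGlut-led neurons. Leaving out a replicate gave 0 to 1 in Gad1-led, 0 to 1 in VGlut-led and 1 to 3 in Vmat-led neurons. The cause was not tested.

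Between conditions, 0 receptor genes were called under any alternative, at adjusted p of 0.125 or more. For the starvation effect in glia-like cells, 1 was called without the cells with more UMIs elsewhere. Same-numbered libraries did not deviate together (correlations of -0.15 to 0.21 over 3 pairs). With their number as a replicate block 0 of 79 tests between conditions were called and 7 had an unadjusted p under 0.05, against 0 and 1 of 75 without it. The interactions allowed no such block, since each library was already a covariate there. Depth limits Grd, left out of most fits, and GABA-B-R3 in Kenyon cell-like cells.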

Other observations

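Clusters that could not be named from the markers also held receptor transcripts. A cluster of 118 cells led by Ilp5, Ilp2, Eh and Ptth, genes of neurosecretory cells, had 667 to 1770.1 CPM of Rdl over the 5 replicates, 48.3 to 163 CPM of GABA-B-R1 and 0 to 73.8 CPM of mGluR. Each of these values lay below that of the transmitter-led neurons in the same replicate. GluClalpha was at 151 to 413 CPM there, below the transmitter-led neurons in 4 of 5 replicates and at 374 against 371 CPM in normal A. An unnamed cluster of 98 cells, led by E(spl)m6-BFM, CG13460, Hr51, CG32188, ey and Hey, had 457 and 273 CPM of GABA-B-R1 in normal A and B and 211 and 403 CPM in starvation A and B. Transmitter-led neurons had 307, 403, 306 and 340.3 CPM, so the values were on both sides of theirs. In the same cluster Rdl was at 79.6 to 243 CPM and GluClalpha at 22.7 to 87.1 CPM, below the transmitter-led neurons in each of the 4 replicates. Hey is a target of Notch signalling in newly born neurons in the fly. These are values of clusters picked after their levels were seen, with no test.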
